A study of Mus musculus with 2 samples.

Results

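Solute carriers of the Slc22a and Slco families take organic ions, hormones, bile acids and prostaglandins into cells, and ATP-binding cassette (ABC) proteins of the Abca, Abcb, Abcc and Abcg families move lipids, sterols and conjugated compounds out of cells or between compartments. These genes were followed in medullary thymic epithelial cells (mTEC) of the mouse, which show antigens of peripheral organs to developing T cells. The members are the genes listed in both libraries whose symbol begins with Slc22a, Slco, Abca, Abcb, Abcc or Abcg and a number. They were 80 of 23123 gene symbols, made up of 26 Slc22a, 14 Slco, 14 Abca, 10 Abcb, 10 Abcc and 6 Abcg genes. The name of the group does not describe every one of them: Abcc8 and Abcc9 encode regulatory subunits of potassium channels, and Slc22a17 is known as a receptor for lipocalin 2.

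The cells compared were mTEC with high surface MHC class II (mTEChi, the population that holds mature cells) and mTEC with low MHC class II (mTEClo, which holds immature mTEC among others). Wild-type B6 mice, with no treatment named, gave thymi that were pooled and sorted by flow cytometry, and each population gave 1 library of poly(A)-selected RNA. For mTEChi the reads were pairs of 100 bases and for mTEClo single reads of 50 bases, so the kind of sequencing and the sorted population cannot be told apart. With 1 library per group there is no replicate check and no p-value can be had, and what follows describes these 2 libraries.

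Levels are in RPKM, reads scaled by transcript length and by library depth, and can be compared between genes because of the scaling by length. The steps in the low values imply about 114700000 reads for mTEChi, where 1 step may stand for a pair, and 20900000 for mTEClo. A change is log2((mTEChi + 1)/(1.21 x mTEClo + 1)), with the factor chosen so that well-expressed genes have a median log2 ratio of 0. The added 1 RPKM (the pseudocount) makes changes at low levels look smaller than they are. A gene was kept where its 2 values averaged at least 0.5 RPKM, and a change of 1 on the log2 scale (2-fold) was the threshold. Counting intervals (95%) are exact bounds on the share of the recovered reads, and cover counting error only. Unless stated otherwise they are given with 1 RPKM added, which makes them look narrower at low levels.

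Markers of other cells differed between the libraries, and their part in the transporter values was not tested. For comparison, 16.1% of all 15590 kept genes were at least 2-fold higher in mTEChi and 9.35% were lower. Of 12 endothelial markers 0 were at least 2-fold higher in mTEChi and 12 were lower, with summed levels of 33.3 RPKM in mTEChi and 290.2 RPKM in mTEClo. Of 14 fibroblast and pericyte markers 1 was higher and 11 were lower, with sums of 202 RPKM in mTEChi and 1037 RPKM in mTEClo. Of 11 kept dendritic cell and macrophage markers 9 were higher and 0 lower. Sums over the 15 listed were 590 RPKM in mTEChi and 155 RPKM in mTEClo, of which Lyz2 alone gave 493 and 133 RPKM. In mTEClo Xcr1, Clec9a, Siglech, Cd209a and Fcgr1 were listed at 0. Of 6 kept erythroid markers 1 (Epb42) was higher and the 4 globin genes were lower, with sums over the 8 listed of 492 RPKM in mTEChi and 8915 RPKM in mTEClo, where Slc4a1 was among those listed at 0. Of 10 thymic epithelial markers 5 were higher (Foxn1, Cldn4, Aire, Cd80 and Ly6d), 2 were lower and 3 were within 2-fold. The lower ones were Krt5 (-1.05) and Krt14 (-1.57). Among those within 2-fold, Epcam and Krt8 had 198 and 1015 RPKM in mTEChi, and 127 and 701 RPKM in mTEClo. Since this is bulk RNA, fewer cells of a type and less RNA per cell cannot be told apart.

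With 1 RPKM added, most kept organic solute carriers and ABC genes lay within 2-fold, and a smaller set passed it in either direction. Of 45 kept members 11 were at least 2-fold higher in mTEChi and 4 were at least 2-fold lower, which is 24.4% and 8.89%. Among all 15590 kept genes the same shares were 16.1% and 9.35%, so the lower share was near that of all genes. The counts depend on the pseudocount: with 0.1 RPKM 16 members were higher and 6 lower, and with 5 RPKM 3 and 3. The Slco carrier Slco1a5 and the sterol half-transporters Abcg5 and Abcg8 had the largest positive changes, and Abca8a, Slco2b1 and Slc22a17 the largest negative ones. Of the 15 members past 2-fold, 6 stayed past it under every alternative setting that was run (Slco1a5, Slco5a1, Abcg5, Abca8a, Slco2b1 and Slc22a17). The other 9 fell short of it with a pseudocount of 5 RPKM. The median change of the kept members was 0.39, against 0.03 over all kept genes.

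**Figure D1:**
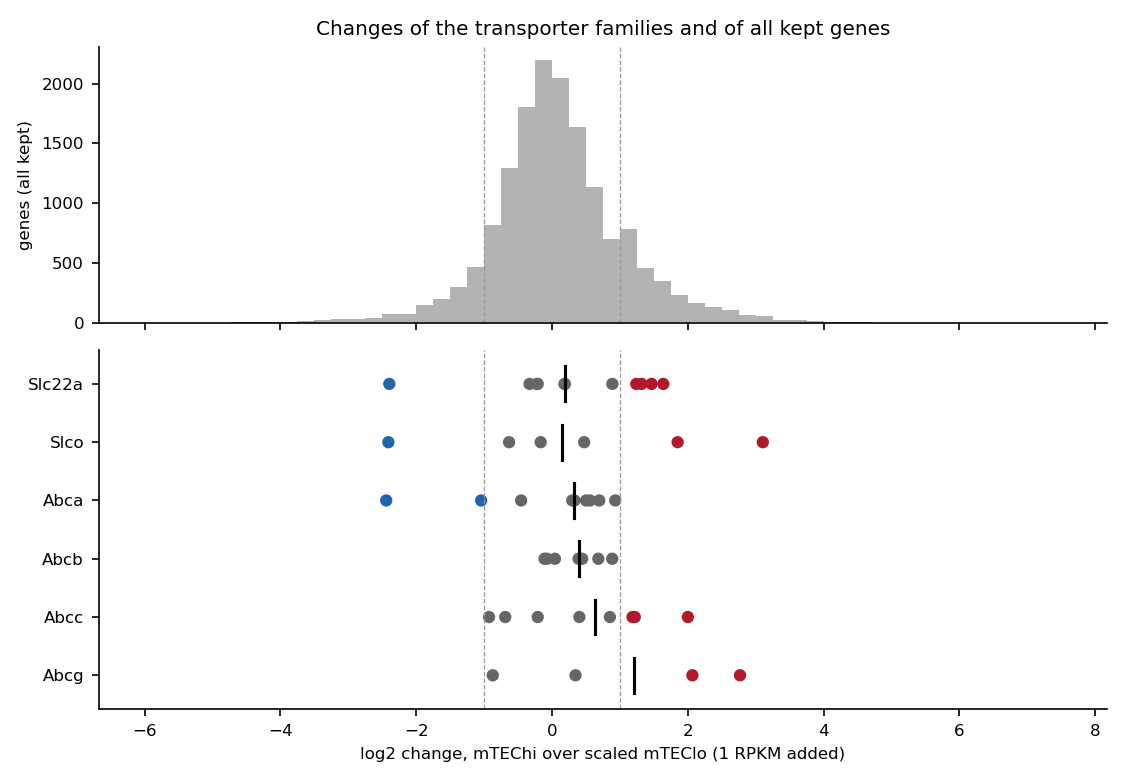
Distribution of log2 changes (mTEChi over scaled mTEClo, 1 RPKM added) over all 15590 kept genes in the upper panel, and for each kept transporter gene by family in the lower panel, with a black bar at each family's median and dashed lines at 2-fold. Abca and Abcb have no gene past 2-fold on the higher side, whereas Abcg has 2 of 4.

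The upstream sequence of 5 loci is shown here as examples from both sides of the comparison: the Abcg5 and Abcg8 pair, Slco1a5 and Abcc2 among the higher members, and Slc22a17 and Slco2b1 among the lower ones. They were picked after the values were seen and are not a ranking, since other members such as Abca8a and Abcc8 also differed widely. Sequences are from RefSeq (GRCm38.p6), in which 65 of the 80 members had a promoter entry. This build is later than the authors' mm9. Capitals mark matches on either strand to 6 motifs. These were AGATAA for the GATA factors, TATAAA for the core promoter box of that name, CCAAT for the box bound by NF-Y, GGGCGG for the GC-rich box of Sp factors, AGGTCA for nuclear receptors as a half-site, and GTTAAT. None of them contains another. Each stretch is the 250 bases before the annotated start, except for Abcg5 and Abcg8, which lie head to head, so that the 109 bases between their starts are upstream of both.
Abcg5 and Abcg8, chr17:84683012-84683120, plus strand: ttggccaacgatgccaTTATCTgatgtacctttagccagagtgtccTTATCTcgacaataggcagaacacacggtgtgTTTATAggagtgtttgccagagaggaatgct
Slco1a5, chr6:142322982-142323231, minus strand: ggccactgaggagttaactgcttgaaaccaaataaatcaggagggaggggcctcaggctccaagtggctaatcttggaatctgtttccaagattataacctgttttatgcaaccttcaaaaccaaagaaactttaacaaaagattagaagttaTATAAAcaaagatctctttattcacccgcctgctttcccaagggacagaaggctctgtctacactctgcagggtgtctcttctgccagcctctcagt
Abcc2, chr19:43782058-43782307, plus strand: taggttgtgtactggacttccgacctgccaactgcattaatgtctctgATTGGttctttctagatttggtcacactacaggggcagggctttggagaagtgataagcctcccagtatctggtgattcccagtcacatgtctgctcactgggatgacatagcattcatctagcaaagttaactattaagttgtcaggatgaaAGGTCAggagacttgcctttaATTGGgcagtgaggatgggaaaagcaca
Slc22a17, chr14:54913133-54913382, minus strand: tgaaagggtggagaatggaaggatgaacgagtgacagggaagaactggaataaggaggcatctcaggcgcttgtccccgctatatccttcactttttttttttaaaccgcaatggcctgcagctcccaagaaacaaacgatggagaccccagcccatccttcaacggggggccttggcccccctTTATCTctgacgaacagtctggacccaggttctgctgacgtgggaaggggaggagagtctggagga
Slco2b1, chr7:99711341-99711590, minus strand: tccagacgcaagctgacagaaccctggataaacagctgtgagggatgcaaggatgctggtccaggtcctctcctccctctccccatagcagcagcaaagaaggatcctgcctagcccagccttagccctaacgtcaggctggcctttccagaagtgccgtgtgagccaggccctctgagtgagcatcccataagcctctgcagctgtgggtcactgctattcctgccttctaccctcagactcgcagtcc

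The stretch between Abcg5 and Abcg8 held 2 matches to AGATAA, at positions 17 and 47 counted from its left end, and 1 to TATAAA at position 79. Over the 109 bases before the starts of 27025 genes, 4.03% held AGATAA at least once, 0.178% at least 2 times, and 6.30% held TATAAA. Among upstream windows of 250 bases, 13.0% held TATAAA, as that of Slco1a5 did, and 10.3% held AGATAA, as that of Slc22a17 did. The window of Abcc2 held CCAAT at 2 places (10.54% of windows held it at 2 or more) and AGGTCA once (13.8% had it at least once). The window of Slco2b1 held none of the 6 motifs. CpG dinucleotides numbered 1 in each of the 250-base windows of Slco1a5 and Abcc2, 8 in that of Slc22a17 and 4 in that of Slco2b1, against a median of 6 over the windows of all genes. The shorter stretch of 109 bases between Abcg5 and Abcg8 held 3. These matches describe letters only.

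Among the Slc22a genes, carriers of organic cations, anions and carnitine, 11 of 26 were kept, of which 4 were at least 2-fold higher in mTEChi, 1 was lower and 6 were within 2-fold. The median change was 0.19. It was -0.01 with a filter at a mean of 2 RPKM and 0.58 with the scaling that set mTEChi highest, so no direction is given for the family as a whole. All 4 higher genes fell short of 2-fold with a pseudocount of 5 RPKM.

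Of the organic cation transporters, Slc22a3, which takes up monoamines in many tissues, was listed at 3.72 RPKM in mTEChi and 0.424 RPKM in mTEClo, a change of 1.64 with a counting interval of 1.44 to 1.81. A kept gene listed at 0 in mTEClo is past the threshold by construction, which holds for 1 of the 45 kept members and 5.32% of all kept genes. Of the 44 kept members above 0 in both libraries 10 were higher (22.7%), against 11.4% of such genes. Slc22a2, the kidney cation transporter, was at 0.257 RPKM in mTEChi and at 0 in mTEClo, under the filter. Exons of Slc22a3 overlap those of Plg on the opposite strand, which was at 0.341 RPKM in mTEChi and 0.156 RPKM in mTEClo, and the libraries do not keep strand.

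Of the anion transporters, Slc22a7, a carrier of liver and kidney, was listed at 8.73 RPKM in mTEChi and 2.58 RPKM in mTEClo, a change of 1.24 (1.02 to 1.46). The classic renal anion carriers were near the floor: Slc22a6 was at 0.0498 RPKM, Slc22a8 at 0.205 RPKM and Slc22a12, the urate exchanger, at 0.186 RPKM in mTEChi, and all were at 0 in mTEClo. A run of 8 neighbouring Slc22a genes on chromosome 19, which includes Slc22a6 and Slc22a8, had 0 kept members and 8 at 0 in mTEClo. Slc22a18, an imprinted gene whose substrate is not settled, had 9.84 RPKM in mTEChi and 2.42 RPKM in mTEClo, a change of 1.47 (1.21 to 1.72).

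The carnitine and ergothioneine transporters, which sit side by side on chromosome 11, had unlike values. Slc22a4, the ergothioneine transporter, was at 2.47 RPKM in mTEChi and 0.720 RPKM in mTEClo, a change of 0.89 that passed 2-fold without scaling (1.01). Slc22a5, the carnitine transporter, had 8.28 RPKM in mTEChi and 8.82 RPKM in mTEClo (-0.33). Slc22a21, a mouse carnitine transporter, had 3.33 RPKM in mTEChi and 3.31 RPKM in mTEClo (-0.21, or 0.0053 without scaling). The intervals of Slc22a5 and Slc22a21 overlapped each other, from -0.45 to -0.21 and from -0.37 to -0.05, and that of Slc22a4, from 0.63 to 1.13, lay above both.

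The one lower member, Slc22a17, was listed at 2.33 RPKM in mTEChi and 13.7 RPKM in mTEClo, a change of -2.39 (-2.53 to -2.26). Without a pseudocount it was 7.1-fold lower in mTEChi. It was the highest Slc22a gene of the mTEClo library, whereas Slc22a23, an orphan carrier, was the highest of the mTEChi library, at 10.51 RPKM in mTEChi and 7.53 RPKM in mTEClo (0.19). Slc22a15 (2.29 RPKM in mTEChi and 2.34 RPKM in mTEClo) and Slc22a14, a testis carrier (0.678 RPKM in mTEChi and 0.392 RPKM in mTEClo), were within 2-fold as well. Most endothelial and fibroblast markers given above were lower in mTEChi as well. With 1 library per group any lower gene shares this direction, which cannot show a link. The part of these markers in the level of Slc22a17 was not tested.

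Of the 15 Slc22a genes under the filter, 4 reached 0.5 RPKM in mTEChi and were at 0 in mTEClo. They were Slc22a13b at 0.952 RPKM, Slc22a20 at 0.679 RPKM, Slc22a13 at 0.634 RPKM and Slc22a22 at 0.559 RPKM. Slc22a13b is annotated as a transcribed pseudogene and resembles Slc22a13, so how reads are shared between the 2 is uncertain. Slc22a16, a testis carnitine transporter, was at 0 in both libraries.

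Among the Slco genes, which encode organic anion transporting polypeptides, 6 of 14 were kept, with 2 at least 2-fold higher in mTEChi, 1 lower and 3 within 2-fold, and a median of 0.16. Slco1a5, a rodent carrier of bile acids and thyroid hormones, was listed at 9.35 RPKM in mTEChi and 0.168 RPKM in mTEClo, a change of 3.11 (2.90 to 3.25). Without a pseudocount the ratio was 46.2-fold, with a counting interval from 4.60 to 6.66 on the log2 scale, since the mTEClo value rests on about 8.99 reads. This was the largest change of all 45 kept members in either direction.

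Slco1a5 stood alone in its cluster. Its neighbours on chromosome 6 were all under the filter: Slco1a6 was at 0.568 RPKM in mTEChi and 0.273 RPKM in mTEClo, Slco1c1, the thyroxine carrier of brain capillaries, at 0.422 RPKM in mTEChi and 0 in mTEClo, and Slco1a4 at 0.280 RPKM in mTEChi and 0 in mTEClo. Slco1a1 (0.0681 RPKM) and Slco1b2, the hepatocyte bile acid carrier (0.0476 RPKM), were lower still in mTEChi and at 0 in mTEClo. Slco1a genes are close paralogs, and the split of shared reads among them is uncertain. The 2 transcript lines of Slco1a5 gave changes of 3.08 and 3.11.

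Slco5a1, an orphan member, was listed at 10.53 RPKM in mTEChi and 1.82 RPKM in mTEClo, a change of 1.85 (1.74 to 1.96). Slco4a1, a thyroid hormone carrier, had 7.06 RPKM in mTEChi and 3.97 RPKM in mTEClo (0.48). Slco2a1, the prostaglandin transporter, was the most abundant of all members in both libraries, with 24.5 RPKM in mTEChi and 22.9 RPKM in mTEClo, and its change was -0.17 (-0.22 to -0.11), or 0.10 without scaling. Slco3a1, which also accepts prostaglandins, had 2.87 RPKM in mTEChi and 4.14 RPKM in mTEClo (-0.63).

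Slco2b1, a carrier of steroid sulfates, went the other way, with 1.74 RPKM in mTEChi and 11.2 RPKM in mTEClo, a change of -2.41 (-2.51 to -2.31). Without a pseudocount it was 7.79-fold lower in mTEChi. Its 3 transcript lines gave changes between -2.41 and -2.38. GENCODE lists antisense genes that overlap its exons (Gm15635 and Gm34280), so reads of either strand cannot be separated. Most endothelial and fibroblast markers were lower in mTEChi as well, a direction that any lower gene shares. Their part in the level of Slco2b1 was not tested. The testis members Slco6c1 and Slco6d1 were at 0.0143 and 0.0317 RPKM in mTEChi and at 0 in mTEClo, as was the kidney carrier Slco4c1 with 0.346 RPKM in mTEChi.

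**Figure D2:**
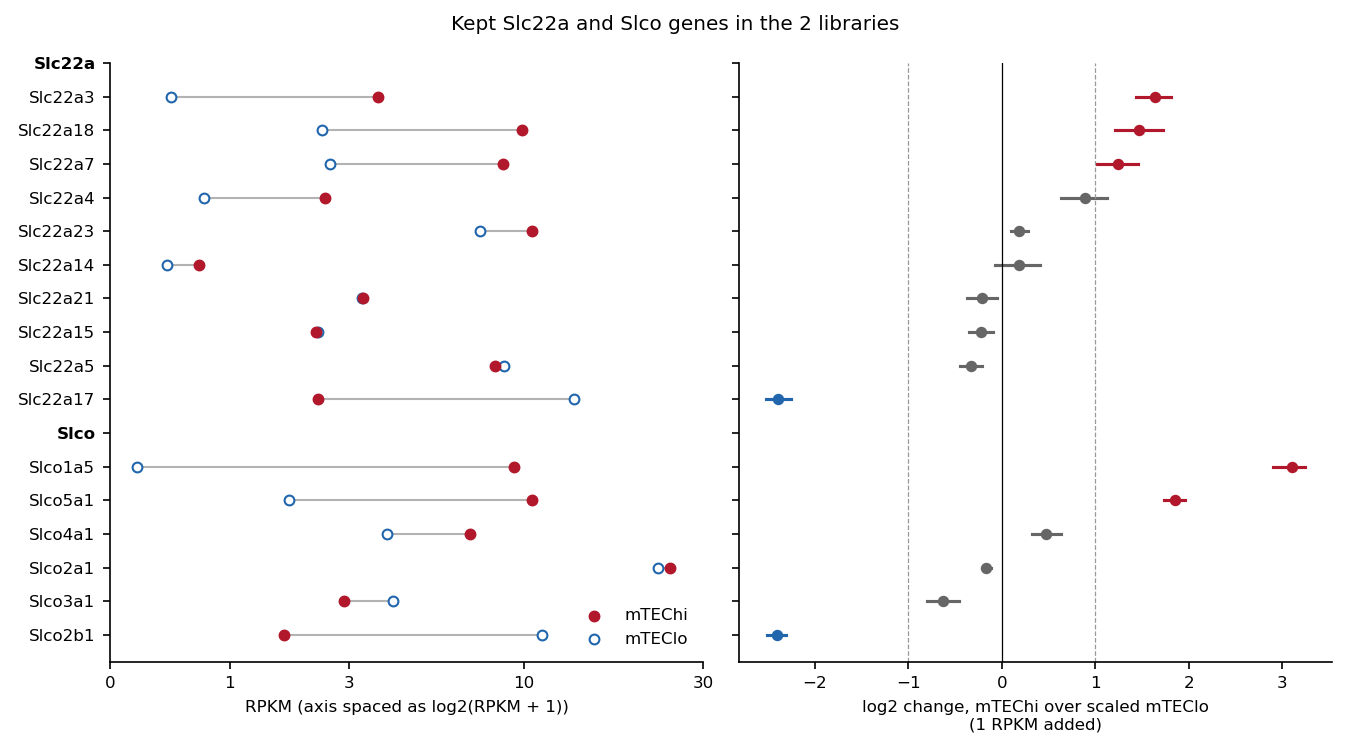
RPKM of the kept Slc22a and Slco genes reported by name, in mTEChi (filled) and mTEClo (open) on the left, and the log2 change with its 95% counting interval on the right, with dashed lines at 2-fold. Slco1a5 has 9.35 RPKM in mTEChi and 0.168 RPKM in mTEClo, whereas Slc22a17 and Slco2b1 are lower in mTEChi and Slco2a1 hardly differs.

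The Abca genes encode full-length lipid transporters. Of 14 members 9 were kept, with 0 at least 2-fold higher, 2 lower and 7 within 2-fold, and a median of 0.33. The sterol transporter Abca1, which loads cholesterol onto apolipoprotein A1, had 3.75 RPKM in mTEChi and 4.55 RPKM in mTEClo (-0.45). Abca7, a related lipid transporter, was the most abundant member of the family in mTEChi, at 13.8 RPKM, and had 7.45 RPKM in mTEClo (0.56). Abca3, which fills the surfactant bodies of the lung, was the most abundant in mTEClo, at 12.2 RPKM in mTEChi and 7.82 RPKM in mTEClo (0.33). GENCODE lists the opposite-strand gene D330041H03Rik over exons of Abca3, at 9.13 RPKM in mTEChi and 10.2 RPKM in mTEClo.

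The keratinocyte transporter Abca12, which loads lipids into lamellar granules of the skin barrier, was listed at 1.64 RPKM in mTEChi and 0.518 RPKM in mTEClo, a change of 0.70. Abca13, the longest of these proteins, had 1.80 RPKM in mTEChi and 0.386 RPKM in mTEClo (0.93, interval 0.84 to 1.02). Both fell short of 2-fold with the pseudocount of 1 RPKM and passed it with 0.1 RPKM, at 1.26 and 1.75. Abca2 (4.63 RPKM in mTEChi and 2.96 RPKM in mTEClo) and Abca5 (2.94 RPKM in mTEChi and 1.47 RPKM in mTEClo), both found in endosomes and lysosomes, were within 2-fold.

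The lower members were neighbours on chromosome 11. Abca8a was listed at 0.372 RPKM in mTEChi and 5.33 RPKM in mTEClo. Its change of -2.44 (-2.53 to -2.34) was the largest negative one of the kept members with 1 RPKM added. Without a pseudocount Abca8a was 17.3-fold lower in mTEChi. Abca9 was at 0.0458 RPKM in mTEChi and 0.954 RPKM in mTEClo (-1.04, interval -1.12 to -0.95). It was just past the filter and, with 1 RPKM added, the threshold, and fell short of 2-fold without scaling (-0.90). Without a pseudocount Abca9 was 25.2-fold lower, a larger ratio than that of Abca8a, on about 33.6 reads in mTEChi. Abca8b, next in the run, was at 0.124 RPKM in mTEChi and 0.674 RPKM in mTEClo and did not pass the filter. Abca6 was near the floor, with 0.108 RPKM in mTEChi and 0.0640 RPKM in mTEClo. Abca5, at the end of the same run, was not lower in mTEChi. The physiological roles of Abca8a, Abca8b, Abca9 and Abca6 are less well known. They are close paralogs, so the split of reads among them is uncertain. The part of the fibroblast and endothelial markers, most of them also lower in mTEChi, was not tested.

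The Abcb genes were the most even family. Of 10 members 7 were kept, with 0 past 2-fold in either direction and changes from -0.11 to 0.89. Abcb8, a half-transporter of mitochondria, had 8.50 RPKM in mTEChi and 3.42 RPKM in mTEClo (0.89, interval 0.72 to 1.06), and it passed 2-fold without scaling (1.10). Abcb10, linked to haem synthesis, had 4.75 RPKM in mTEChi and 2.67 RPKM in mTEClo (0.45). Abcb6, a porphyrin transporter, had 2.43 RPKM in mTEChi and 1.34 RPKM in mTEClo (0.39).

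The multidrug exporters Abcb1a and Abcb1b, the paired P-glycoproteins of the mouse, were at 1.55 and 1.08 RPKM in mTEChi and at 1.39 and 1.02 RPKM in mTEClo. Their changes of -0.08 and -0.11 had counting intervals that included 0 and turned to 0.09 and 0.04 without scaling, and as near copies they can share reads. Abcb9, a lysosomal peptide transporter, had 1.21 RPKM in mTEChi and 0.947 RPKM in mTEClo (0.04, interval -0.16 to 0.24). The canalicular transporters of liver were under the filter: Abcb11, the bile salt export pump, was at 0.267 RPKM and Abcb4, the phosphatidylcholine floppase, at 0.237 RPKM in mTEChi, and both were at 0 in mTEClo, as was Abcb5 with 0.234 RPKM in mTEChi.

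The Abcc genes hold exporters of conjugated anions and the sulfonylurea receptors. Of 10 members 8 were kept, with 3 at least 2-fold higher in mTEChi, 0 lower and 5 within 2-fold, and a median of 0.63. Abcc1, an exporter of leukotriene C4 and glutathione conjugates, was the most abundant of the Abca, Abcb, Abcc and Abcg genes in mTEChi at 22.5 RPKM, against 7.69 RPKM in mTEClo, a change of 1.19 (1.11 to 1.27). Abcc2, which exports bilirubin conjugates into bile, was at 1.53 RPKM in mTEChi and 0.0711 RPKM in mTEClo, a change of 1.22 (1.13 to 1.28). Its ratio without pseudocount was 17.8-fold, with a wider interval from 3.34 to 5.12 on the log2 scale, and rests on about 11.9 reads in mTEClo. Abcc4, an exporter of cyclic nucleotides and prostaglandins, had 3.49 RPKM in mTEChi and 1.23 RPKM in mTEClo (0.85), and it passed 2-fold without scaling (1.01).

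The other exporters differed less. Abcc3, the basolateral conjugate pump of liver and gut, had 10.04 RPKM in mTEChi and 6.08 RPKM in mTEClo (0.40). Abcc10 had 2.740 RPKM in mTEChi and 2.749 RPKM in mTEClo (-0.21 after scaling), and Abcc5, a cyclic nucleotide exporter, 2.83 RPKM in mTEChi and 4.28 RPKM in mTEClo (-0.69). The 2 lines of Abcc5 gave changes of -0.69 and -0.41, the widest range among the 13 members with several lines. Abcc6, whose loss causes ectopic calcification, had 0.295 RPKM in mTEChi and 0.125 RPKM in mTEClo and did not pass the filter, nor did Abcc12, with 0.263 RPKM in mTEChi and 0 in mTEClo.

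The 2 sulfonylurea receptors lay at opposite ends of the family. Abcc8 (SUR1), the receptor of pancreatic beta cells, was listed at 5.49 RPKM in mTEChi and 0.512 RPKM in mTEClo, a change of 2.00 (1.84 to 2.15). Its channel partner Kcnj11 had 3.32 RPKM in mTEChi and 3.97 RPKM in mTEClo, a change of -0.42. Abcc9 (SUR2), the receptor of muscle and pericytes, was at 0.299 RPKM in mTEChi and 1.22 RPKM in mTEClo (-0.93, interval -1.05 to -0.80), with all 4 lines between -0.93 and -0.91. Its partner Kcnj8 was at 0.187 RPKM in mTEChi and 1.33 RPKM in mTEClo, a change of -1.14. With 1 RPKM added, of these 4 genes Abcc8 was past 2-fold on the higher side and Kcnj8 on the lower, and Abcc9 and Kcnj11 were within 2-fold. Without a pseudocount Abcc9 was 4.91-fold lower in mTEChi, with an interval from -2.58 to -2.01 on the log2 scale. With 0.1 RPKM added its change was -1.97. Of the fibroblast and pericyte markers, Rgs5 was higher in mTEChi (125.7 RPKM in mTEChi and 49.1 RPKM in mTEClo, 1.07), and Pdgfrb (-0.21) and Cspg4 (-0.15) were within 2-fold. The other markers of that list were lower, among them Acta2 (32.0 RPKM in mTEChi and 197.8 RPKM in mTEClo, -2.86), Dcn (-4.03) and Col3a1 (-4.40). The part of these markers in the values of Abcc9 and Kcnj8 was not tested.

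The Abcg genes are half-transporters. Of 6 members 4 were kept, with 2 at least 2-fold higher in mTEChi and 0 lower. Abcg5 and Abcg8 form 1 heterodimer that returns plant sterols and cholesterol to the gut lumen and bile. Abcg5 was listed at 8.27 RPKM in mTEChi and 0.296 RPKM in mTEClo, a change of 2.77 (2.53 to 2.95). Abcg8 was at 4.32 RPKM in mTEChi and 0.222 RPKM in mTEClo, a change of 2.07 (1.89 to 2.21). Without a pseudocount the ratios were 23.1-fold and 16.1-fold, on about 14.5 and 17.0 reads in mTEClo, and their intervals overlapped, from 3.79 to 5.39 and from 3.32 to 4.79 on the log2 scale. GENCODE lists exons of the 2 genes that overlap on opposite strands, so some reads may be counted for both.

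The other members of the family did not follow them. Abcg1, which moves cholesterol to lipoproteins, had 11.4 RPKM in mTEChi and 7.24 RPKM in mTEClo (0.35). Abcg2, an exporter of urate and xenobiotics found in capillaries and stem cells, had 3.20 RPKM in mTEChi and 5.53 RPKM in mTEClo (-0.87, interval -0.98 to -0.76). Abcg3 and Abcg4 were at 0.276 and 0.310 RPKM in mTEChi and at 0 in mTEClo. The median of 1.21 lies between 2 low and 2 high values and describes none of the 4 genes.

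**Figure D3:**
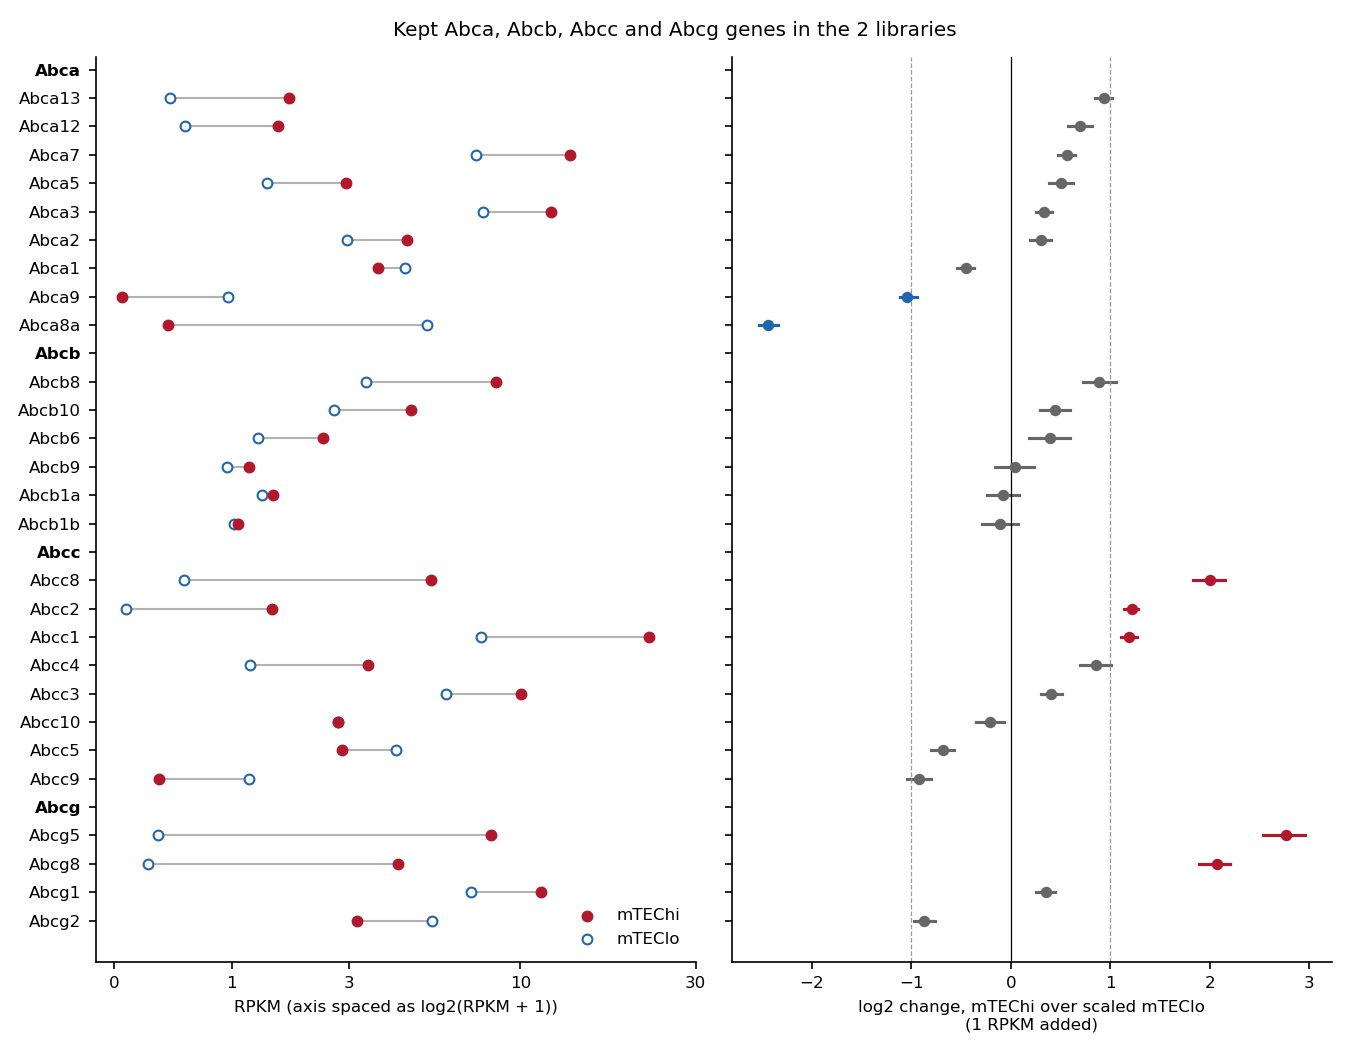
RPKM of the kept ABC genes reported by name, in mTEChi (filled) and mTEClo (open) on the left, and the log2 change with its 95% counting interval on the right, with dashed lines at 2-fold. Abcg5, Abcg8 and Abcc8 are higher in mTEChi, Abca8a is lower, and the Abcb genes drawn lie between -0.11 and 0.89.

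Values of 0 were unevenly spread over the families, whose members also differ in level and transcript length. In mTEClo 30 of the 80 members (37.5%) were listed at 0, against 30.9% of all gene symbols, and in mTEChi 1 was. By family these were 16 of 26 Slc22a, 7 of 14 Slco, 1 of 14 Abca, 3 of 10 Abcb, 1 of 10 Abcc and 2 of 6 Abcg genes. Of these, 29 were under the filter, and the highest of the 29 in mTEChi was Slc22a13b at 0.952 RPKM. From the mTEChi value, the depth ratio of 5.50 and the scaling, 25 members had 20 to 200 reads expected in mTEClo, and 10 of these were listed at 0, against 16.5% of 6461 genes in that class. With 5 to 20 expected reads 11 of 15 members were at 0, against 59.3% of all genes. Over all lines with a matched length, 7653 were at 0 in mTEClo and 245 held 1 to 3 reads. In mTEChi these numbers were 2279 and 573. Rps21, which encodes a protein of the ribosome, had 144 RPKM in mTEChi and was also listed at 0 in mTEClo. A value of 0 in that library can therefore be a failed estimate, and no ratio is given against it.

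**Figure D4:**
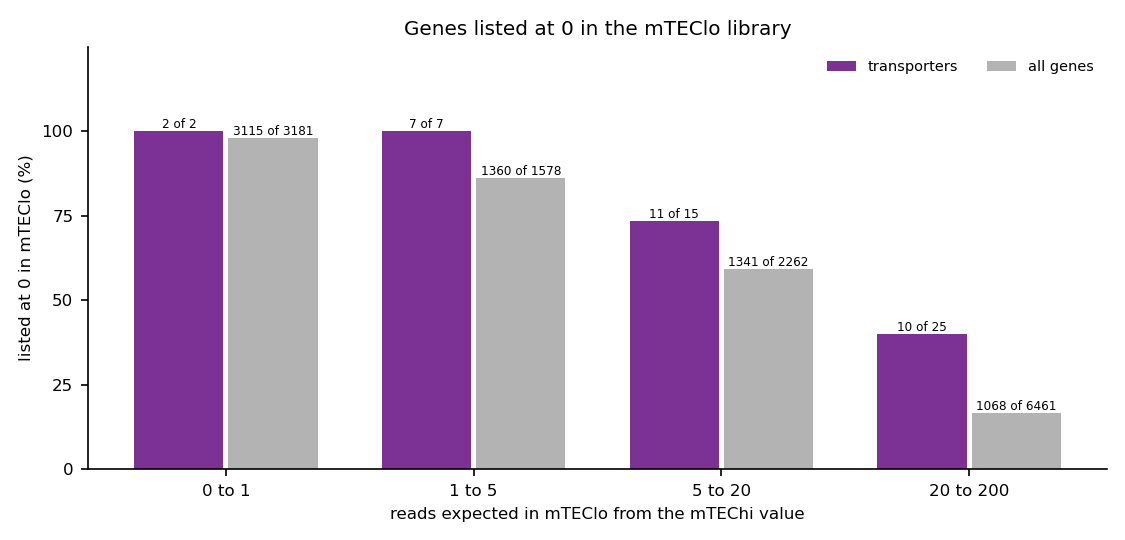
Share of genes listed at 0 in mTEClo (percent) by the number of reads expected there from the mTEChi value, for the transporters and for all genes with a matched length. The numbers above the bars give genes at 0 of genes in the class, such as 10 of 25 transporters and 1068 of 6461 genes with 20 to 200 expected reads.

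A list of other carriers, partners and regulators gives the surroundings of these genes. Of 59 genes 53 were kept, with 13 at least 2-fold higher in mTEChi and 8 lower, which is 24.5% and 15.1% against 16.1% and 9.35% of all kept genes, and a median of 0.21. The list was drawn up with earlier results of these libraries known. Among other carriers of bile acids and organic solutes, 4 of 12 kept genes were higher and 4 lower, 33.3% each. The organic solute transporter pair that lets bile acids leave the enterocyte was higher: Slc51a had 7.80 RPKM in mTEChi and 0.310 RPKM in mTEClo (2.68), and Slc51b 12.2 RPKM in mTEChi and 3.04 RPKM in mTEClo (1.49). The bile acid uptake carriers Slc10a1 and Slc10a2 were at 0.187 and 0.118 RPKM in mTEChi and at 0 in mTEClo. Slc2a9, a urate carrier, was higher (1.15), and Slc17a1, a phosphate and urate carrier of the kidney, was at 1.99 RPKM in mTEChi and 0 in mTEClo.

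The lower carriers included Slc10a6, for sulfated steroids (1.0045 RPKM in mTEChi and 12.8 RPKM in mTEClo, -3.04), the peptide carrier Slc15a2 (-1.64) and the nucleoside carrier Slc29a1 (-1.60). Slc47a1, the proton exchanger that works with organic cation uptake in kidney and liver, had 1.24 RPKM in mTEChi and 0.600 RPKM in mTEClo (0.38). Of 10 kept ABC proteins outside the families 1 was higher, the chloride channel gene Cftr with 4.81 RPKM in mTEChi and 0.0911 RPKM in mTEClo (2.39), and 0 were lower. The Abce1 and Abcf proteins, which act in translation and have no membrane span, had changes from -0.20 to 0.01.

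Among lipid, channel and scaffold partners 4 of 10 were higher and 4 lower, 40.0% each, against 16.1% and 9.35% of all kept genes. Apoa1, the acceptor of cholesterol from Abca1, had 116 RPKM in mTEChi and 21.8 RPKM in mTEClo (2.09), whereas Apoe, another acceptor, had 151 RPKM in mTEChi and 876 RPKM in mTEClo (-2.80). Apob, the protein of chylomicrons, was higher (1.57), as were the scaffolds Pdzk1 (1.62) and Slc9a3r1 (1.24), which anchor apical transporters. The lipoprotein modifiers Pltp (-1.90) and Lcat (-1.38) were lower, in addition to Apoe and Kcnj8.

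Among transcriptional regulators of transporter genes 4 of 21 kept genes were higher and 0 lower. The share higher, 19.0%, was near the 16.1% of all kept genes. Hnf4g, a gut and kidney factor, had 6.02 RPKM in mTEChi and 1.90 RPKM in mTEClo (1.09), the intestinal factor Cdx2 1.77 RPKM in mTEChi and 0.1785 RPKM in mTEClo (1.19), and Nr0b2, the repressor of bile acid synthesis genes, 1.43 RPKM in mTEChi and 0 in mTEClo. The sterol sensors of the Abca1, Abcg1, Abcg5 and Abcg8 genes were not higher: Nr1h3 (LXR alpha) had 7.24 RPKM in mTEChi and 9.54 RPKM in mTEClo (-0.60), and Nr1h2 (LXR beta) 27.0 RPKM in mTEChi and 33.1 RPKM in mTEClo (-0.55). The xenobiotic sensors Nr1i2 (0.97) and Nr1i3 (0.89) fell short of 2-fold and were under 1.5 RPKM in both libraries. Which regulator acts on which transporter gene was not tested.

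**Figure D5:**
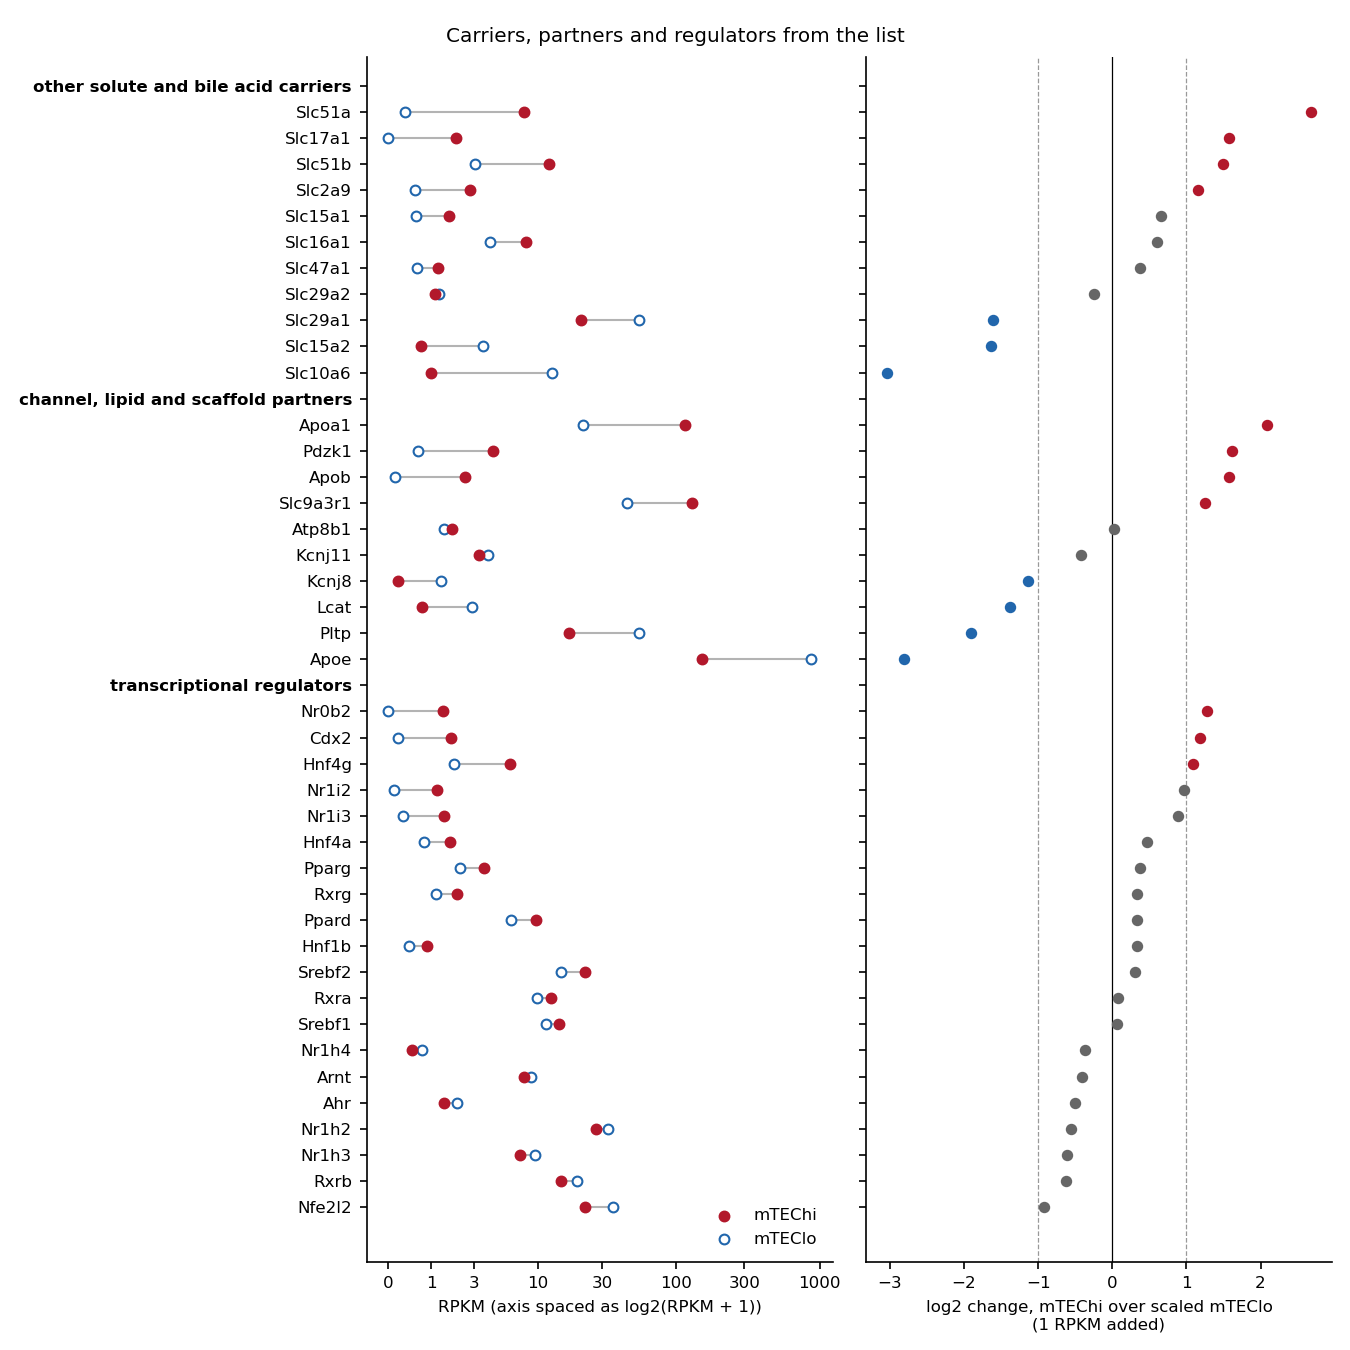
RPKM in mTEChi (filled) and mTEClo (open) on the left and log2 change on the right for kept genes of 3 of the 4 groups of the partner list that are reported by name, with dashed lines at 2-fold. Slc51a and Apoa1 lie highest in change, and Slc10a6 and Apoe lowest.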

How the data were processed

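RNA of 2 sorted mTEC populations was compared, 1 library each. The authors deposited 1 column of RPKM per RefSeq transcript line (30794 lines). Per the submitters' processing notes, build mm9, CASAVA, Bowtie 1.0.0 and bedtools were used, in roles not given in the sources used here, and the treatment of reads shared by isoforms or paralogs is not given either. Per the labels, the kit keeps no strand. RefSeq accessions gave a symbol for 30216 of them, GENCODE metadata for 180 more, and 398 were left out. A gene's value is its line with the highest mean RPKM. One gene that fits the name pattern was left out. Some genes enter the counts and medians but are not reported by name here.

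Depth was recovered from RPKM times GENCODE transcript length: 75.9% of 1463 low values in mTEChi and 65.9% of 993 in mTEClo lay within 0.1 of a whole read. For mTEChi nearly all fitted low values were even at first, so its depth was divided by 2, after which 54.5% were even. Whether the remaining step is 1 read or 1 pair is not known. Mates of a pair are not independent, so if the step is 1 read, intervals for mTEChi may be too narrow. The factor of 1.21 came from 5167 genes averaging at least 10 RPKM. Members, lists and alternatives were chosen with earlier results of these data known. Alternatives covered the pseudocount, the filter, the scaling, the gene value and genes at 0. Every kept member could be named, those past 2-fold and averaging at least 1 RPKM, or highest in a family, in full, as could members at 0.5 RPKM in a library and partners past 2-fold. Members at lower levels, and partners within 2-fold other than Kcnj11 and Slc47a1, were chosen after their values were seen. Runs of neighbours allow 1 gene in between. The calculation was tried on simulated counts with known changes and counting error only. These lacked the many values of 0 seen in mTEClo, so the trial does not cover such values. Calculations used pandas 2.3.3 with numpy 2.4.6 under Python 3.11.15, intervals scipy 1.17.1, and figures matplotlib 3.10.9.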

Additional observations from a re-analysis of the deposited data

How the results depend on the processing

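No paired analysis was possible because each group has 1 library, and no library could be left out. Over 11 alternatives, 452 of 482 values of single members kept their side of 2-fold, 12 fell short of it, 18 came to pass it and 0 reversed. With a pseudocount of 5 RPKM the higher genes numbered 0 Slc22a, 0 Abcc and 1 Abcg, the lower Abca genes 1, and the medians were 0.23 (Abca) and 0.17 (Abcb). The same setting gave 4 higher and 4 lower partners, 877 higher and 648 lower among all genes, and 0 higher B cell, 0 thymocyte, 0 erythroid and 4 dendritic cell and macrophage markers. With 0.1 RPKM there were 2 higher Abca, 1 higher Abcb, 1 lower Abcc and 1 lower Abcg gene and 3 lower thymocyte markers, and the Slc22a median was 0.44. Without scaling, 74.9% of all genes past 2-fold were higher, against 63.3% with it, and the median of all genes was 0.25. There were then 1 higher and 1 lower Abca gene, 1 higher Abcb gene and 1 lower thymic epithelial marker, with medians of 0.58 (Abca), 0.43 (Slc22a) and 0.41 (partners). With the same RPKM sum these were 1 lower Abca, 1 higher Abcb gene and 1 lower thymic epithelial marker, with medians of 0.46 (Abca) and 0.32 (Slc22a). With the upper quartile of each library's own values above 0, added after the data were seen, 80.4% of calls were higher and 838 genes lower, with 1 higher and 1 lower Abca gene, 1 higher Abcb gene, 1 lower thymic epithelial marker and medians of 0.72 (Abca), 0.65 (Abcb), 0.58 (Slc22a) and 0.47 (partners). A filter at a mean of 2 RPKM left 1 lower Abca gene, 8 higher partners, 1 higher B cell and 1 higher thymocyte marker and 1574 higher genes, with medians of 0.68 (Abcb), -0.010 (Slc22a) and 0.035 (partners). Without the filter the Abca median was 0.054. Summed transcripts gave 1 lower Abcc gene, and leaving out genes at 0 left 1 higher B cell marker. Fewer genes are tested under a stricter filter. For the other settings the cause was not tested.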

Other observations

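Other gene families that handle foreign compounds and hormones were set beside the transporters. Of 46 kept Cyp genes, the cytochromes P450, 27 were at least 2-fold higher in mTEChi and 3 lower, with a median change of 1.10. Of 41 kept Ugt, Gst and Sult genes, the conjugating enzymes, 17 were higher and 1 lower, with a median of 0.83. The other solute carriers had 61 of 270 kept genes higher and 24 lower, with a median of 0.24, beside 11 of 45 higher, 4 lower and 0.39 for the transporters described here. Of all kept genes 16.1% were higher. Genes listed at 0 in mTEClo, which are past the threshold by construction, numbered 11 of the kept Cyp genes, 4 of the kept Ugt, Gst and Sult genes, 15 of the other solute carriers and 1 of the transporters. Among genes above 0 in both libraries, 16 of 35 Cyp genes were higher (median 0.69), 13 of 37 Ugt, Gst and Sult genes (0.68), 46 of 255 other solute carriers (0.20) and 10 of 44 transporters (0.37), against 11.4% of all such genes. At least 1 RPKM was listed for 41 of the 80 transporters in mTEChi and for 32 in mTEClo. Differences between these families were not tested. Of the remaining markers, 2 of 4 kept B cell and 2 of 10 kept thymocyte genes were higher, and 0 and 0 were lower.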
